A study of Mus musculus with 2 samples.

Results

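Mir322, Mir503, Mir351, Mir542 and Mir450b are 5 microRNA genes of a single polycistronic locus on the mouse X chromosome. They were chosen by gene name and locus, with earlier results of these data known, and make up 5 of the 2202 microRNA genes in the deposited tables. All 5 had at least 10 reads in both libraries, which was the case for 335 genes (15.2%) in all. The study sequenced RNA of under 30 bases from whole heart of female B6CASTF1/J mice, an F1 hybrid cross, aged 14 days. It holds 1 group of 2 biological replicates and no treatment, so the libraries describe the young heart and how far it varied between samples. The label of replicate 1 speaks of 3 females and that of replicate 2 of a single female, without saying whether RNA or tissue was pooled. Both carry the same donor record, so how far the samples were separate animals cannot be read from the labels. The free-text description writes months where the age field writes days, and the age field was used.

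MicroRNAs are cut as short arms from a hairpin precursor and guide repression of messenger RNAs, mainly through the seed, bases 2 to 8 of the mature arm. miR-322, the rodent counterpart of human miR-424, and miR-503 belong to the extended miR-15/16 family, best known for repressing cell cycle regulators such as cyclins and Cdc25a, and both have been studied in muscle differentiation and in cardiac progenitors. miR-351 carries the seed of the miR-125 family, and miR-542-3p is known as a repressor of survivin (Birc5), an inhibitor of apoptosis that acts in cell division.

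The 7 annotated microRNA genes of the locus lie on the minus strand within 6353 bases (mm10). In the direction of transcription Mir322 (chrX:53054255-53054349) comes first, followed after 200 bases by Mir503 (chrX:53053984-53054054) and after a further 630 bases by Mir351 (chrX:53053255-53053353). A gap of 3767 bases separates these from Mir542 (chrX:53049403-53049487). Mir450-2, Mir450-1 and Mir450b (chrX:53047997-53048078) follow, with 1035 bases between Mir542 and Mir450-2. No member overlaps an exon of another gene in GENCODE M21, where the noncoding gene C430049B03Rik ends upstream of Mir322. In RefSeq the same gene is longer (chrX:53053112-53057190) and spans Mir322, Mir503 and Mir351, 3 of the 5 members.

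All 5 members had entries for their mature arms in RefSeq (GRCm38.p6), 10 arms in all, and 4 had one for the hairpin. The hairpins of Mir322 and Mir503 are shown because these adjacent genes share most of a seed, with the 2 mature arms in capitals, 5′ to 3′:
Mir322 hairpin: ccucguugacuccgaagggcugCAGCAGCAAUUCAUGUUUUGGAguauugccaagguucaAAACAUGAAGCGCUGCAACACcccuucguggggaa
Mir503 hairpin: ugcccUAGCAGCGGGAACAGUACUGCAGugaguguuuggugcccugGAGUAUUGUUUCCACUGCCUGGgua

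The mature arms of the members are set beside relatives from other loci to show which seeds recur, with the seed in capitals:
miR-322-5p: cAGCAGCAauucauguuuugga
miR-497a-5p: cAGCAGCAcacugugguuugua
miR-195a-5p: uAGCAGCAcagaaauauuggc
miR-15b-5p: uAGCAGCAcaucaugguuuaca
miR-503-5p: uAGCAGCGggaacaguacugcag
miR-351-5p: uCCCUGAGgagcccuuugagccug
miR-125a-5p: uCCCUGAGacccuuuaaccuguga
miR-542-3p: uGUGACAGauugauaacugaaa
miR-542-5p: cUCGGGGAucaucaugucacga
miR-450b-5p: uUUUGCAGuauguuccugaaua
miR-450b-3p: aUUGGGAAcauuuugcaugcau
miR-450a-1-3p: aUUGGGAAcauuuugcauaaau

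The seed of miR-322-5p is, among others, that of miR-15a, miR-15b, miR-16, miR-195a, miR-195b and miR-497a. miR-503-5p shares bases 2 to 7 with them and differs from miR-322-5p within the first 8 bases by C1U and A8G, with positions counted from the 5′ end of miR-322-5p. No other mature arm of the table has the full seed of miR-503-5p. miR-351-5p and miR-125a-5p are identical over the first 8 bases. Compared position by position without gaps, they differ at 14 of 24 positions in all. miR-450b-3p differs from miR-450a-1-3p of Mir450-1 at 2 of 22 positions, G19A and C20A, both outside the seed. The 10 arms of the members carry 10 different seeds.

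Sequence similarity bears on the counts, because reads that mapped to several places were counted for no gene. The hairpins of Mir322, Mir503, Mir351 and Mir542 share no stretch of 14 bases with any other microRNA hairpin of the annotation. Only hairpins were compared, so a loss of their reads to matches elsewhere in the genome was not examined. Mir450b shares 19 bases with Mir450-1, and reads lying wholly within them could be left uncounted for both. Mir450-1 and Mir450-2 share 25 bases, which include the identical arm miR-450a-5p, so their own reads can be undercounted by an unknown amount.

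Replicate 1 held 12701590 reads and replicate 2 held 7126319, of which 5237062 and 3026501 were counted for the own strand of a microRNA gene. Levels are given as these reads scaled to 1000000 counted reads (CPM), one hairpin at a time, with both arms summed since the tables do not separate them. Reads mapping to several places made up 41.1% and 39.9% of the libraries. Heart muscle microRNAs were read beside the labelled tissue. Of 7 cardiomyocyte genes, 5 were detected in both libraries and none was at 0 in both. Their summed level was 5192 CPM in replicate 1 and 3454 CPM in replicate 2. The cardiomyocyte list holds the copies of Mir1a and Mir133a, which encode identical arms and so can be undercounted. Of 7 epithelial genes, 5 were likewise detected and none was at 0 in both, so detection alone does not tell the tissue. The members had 0 reads on the opposite strand.

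Mir322 was the most abundant gene of the locus and held most of its reads. It had 39385 reads in replicate 1 and 33317 in replicate 2, or 7520 CPM (exact 95% Clopper-Pearson interval 7447 to 7595) and 11008 CPM (10891 to 11127). Its mean of 9264 ± 2466 CPM (SD, n = 2) had rank 19 of all microRNA genes by CPM per hairpin and rank 2 on the X chromosome, where Mir652 had rank 1. Replicate 2, with fewer reads in all, was the library with the higher Mir322 level. These intervals cover counting error only. Since reads carry no molecular identifiers, each was taken as independent, and the intervals can be too narrow. In whole tissue, fewer cells of a type and less RNA per cell cannot be told apart.

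Mir351, whose miR-125 type seed sets it apart from Mir322, was next. It had 18105 and 7984 reads, or 3457 CPM (3407 to 3508) in replicate 1 and 2638 CPM (2581 to 2696) in replicate 2, with a mean of 3048 ± 579 CPM (SD, n = 2) and rank 41. Here replicate 1 was the higher library.

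Mir542, the source of miR-542-3p, had 5268 and 3088 reads. Its level was nearly the same in both libraries, 1006 CPM (979 to 1033) in replicate 1 and 1020 CPM (985 to 1057) in replicate 2, with a mean of 1013 ± 10.2 CPM (SD, n = 2) and rank 70. The intervals overlap.

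Mir503, only 200 bases downstream of Mir322, stood far below it. It had 1262 and 562 reads, or 241 CPM (228 to 255) in replicate 1 and 186 CPM (171 to 202) in replicate 2, with a mean of 213 ± 39.1 CPM (SD, n = 2) and rank 117. Per base of annotated hairpin, the level of Mir322 was 23.3 times that of Mir503 in replicate 1 and 44.3 times in replicate 2. As plain reads per hairpin the ratios were 31.2 and 59.3.

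Mir450b closed the list. It had 789 and 621 reads, or 151 CPM (140 to 162) in replicate 1 and 205 CPM (189 to 222) in replicate 2, with a mean of 178 ± 38.6 CPM (SD, n = 2) and rank 128. Like Mir322, it was higher in replicate 2.

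**Figure D1:**
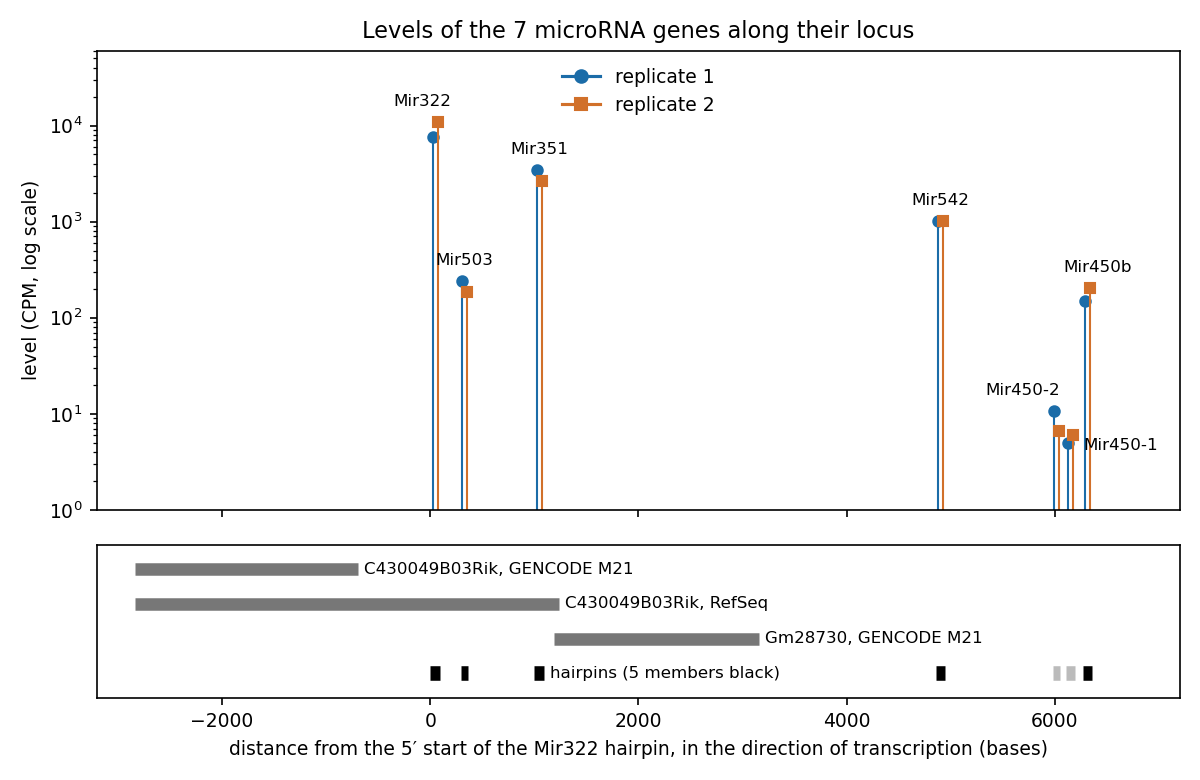
Levels of the 7 microRNA genes (CPM, log scale) by distance from the Mir322 start in bases, with replicate 1 as circles and replicate 2 as squares; the lower panel shows the hairpins and the annotated noncoding genes. The adjacent Mir322 and Mir503 stood at means of 9264 and 213 CPM. In counted reads Mir450b stood above its neighbours Mir450-1 and Mir450-2, but reads of the arm that these neighbours share would not be counted.

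Scaled to hairpin length, the members kept the order Mir322, Mir351, Mir542, Mir503, Mir450b, with 9752 ± 2596, 3078 ± 585, 1192 ± 12.0, 300.5 ± 55.1 and 217 ± 47.0 CPM per 100 bases (SD, n = 2). On this scale Mir322 was above Mir351 by 2.27-fold in replicate 1 and 4.35-fold in replicate 2. Mir351 was above Mir542 by 2.95-fold and 2.22-fold, and Mir542 above Mir503 by 3.49-fold and 4.59-fold. In each of these 3 steps the mean log2 ratio was more than 2 SD from 0 and had the same sign in both libraries. This rule is a description and not a test, because an SD from 2 libraries rests on a single difference. Mir503 and Mir450b, the lowest neighbours in the order, did not differ beyond their spread, with ratios of 1.85 and 1.05 per length and, as plain reads, 1.60 and 0.905. The order does not follow the position along the locus, since Mir503 lies between the 2 most abundant members.

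Mir450-2 and Mir450-1, which lie between Mir542 and Mir450b, had few uniquely mapped reads. Mir450-2 had 56 reads in replicate 1 and 20 in replicate 2 (10.7 and 6.61 CPM), and Mir450-1 had 26 and 18 (4.96 and 5.95 CPM). Reads of their shared arm would map to both genes, and so the level of miR-450a-5p itself is not measured in these counts.

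Together the 5 members held 64809 reads in replicate 1 and 45572 in replicate 2. This was 1.24% (1.23 to 1.25) and 1.51% (1.49 to 1.52) of all counted reads, and 30.8% and 33.3% of the reads of the 142 microRNA genes on the X chromosome. The make-up of these reads was not constant. Mir322 took 60.8% (60.4 to 61.1) of the members' reads in replicate 1 and 73.1% (72.7 to 73.5) in replicate 2, whereas Mir351 took 27.9% (27.6 to 28.3) and 17.5% (17.2 to 17.9). Mir542 took 8.13% and 6.78%, Mir503 1.95% and 1.23%, and Mir450b 1.22% and 1.36%.

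The members were set beside genes of other loci with the same seeds. The seed of miR-322-5p occurs in 10 other genes of the tables, of which 6 had reads. These 6, on chromosomes 3, 11 and 14, all belong to the miR-15/16 list. Their summed level was 8426 CPM in replicate 1 and 6197 CPM in replicate 2. Of the uniquely mapped reads of these genes and Mir322 together, Mir322 held 47.2% in replicate 1 and 64.0% in replicate 2. Mir15b stood at 4522 and 2672 CPM and was the next highest in both libraries, also per base of hairpin. Mir195a stood at 1507 and 605 CPM, Mir497 at 901 and 877 CPM, Mir15a at 850.5 and 916 CPM, and Mir16-1 at 549.9 and 1011 CPM. Mir16-2 stood at 95.1 and 116 CPM. The shares are those of counted reads only, because Mir16-1 and Mir16-2 share 23 bases, the whole miR-16-5p arm among them. Reads of that arm would map to both genes, so the level of miR-16-5p itself is not measured in these counts. The shares are therefore not those of the seed family.

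Among the genes with the seed of miR-351-5p, those outside the locus held most of the counted reads. Mir125a, in which the seed also lies on the 5p arm, stood at 8020 CPM in replicate 1 and 3171 CPM in replicate 2, Mir125b-1 at 315 and 241 CPM, and Mir125b-2 at 213 and 123 CPM. Mir351 held 28.8% of the reads of these genes in replicate 1 and 42.7% in replicate 2. Mir125b-1 and Mir125b-2 share 24 bases, the whole miR-125b-5p arm among them. Reads of that arm would map to both genes, so the level of miR-125b-5p itself is not measured in these counts. The other genes with this seed, Mir6367 and Mir6394, had 0 reads. A count of 0 allows a level of 3 reads, equal to 0.573 CPM at the depth of replicate 1 and 0.991 CPM at that of replicate 2. Arms were not separated, so these sums take every read of a gene, also those of its other arm.

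**Figure D2:**
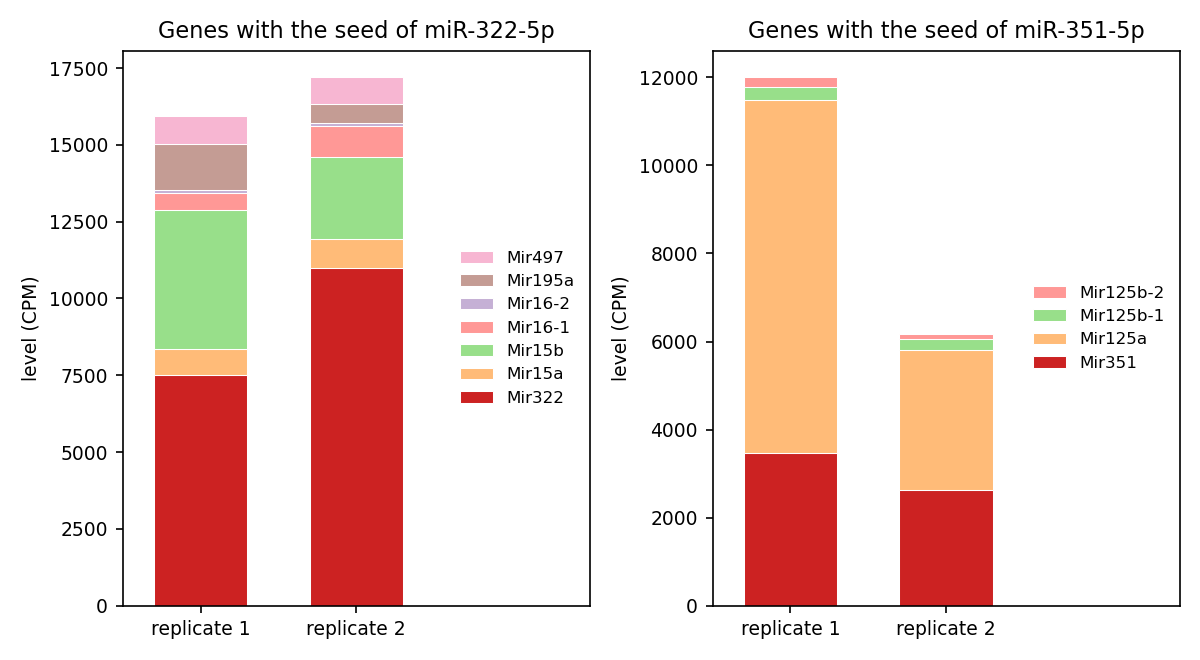
Stacked levels (CPM) of the genes with reads that carry the seed of miR-322-5p (left) and of miR-351-5p (right), in replicate 1 and replicate 2. By counted reads, Mir322 was the largest part of its seed group in both libraries, and Mir125a was the largest part of the other. Reads of miR-16-5p and of miR-125b-5p would map to several genes and not be counted, so the parts are not shares of the seed families.

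A second microRNA cluster lies on the same strand of the X chromosome, 311782 bases downstream. It runs from Mir106a to Mir363, is a paralog of the miR-17-92 cluster and, like it, is known for promoting proliferation. Its 6 genes had 498 reads in replicate 1 and 192 in replicate 2, a sum of 95.1 and 63.4 CPM. Mir92-2 had 68.4 and 40.6 CPM and Mir106a 14.3 and 11.9 CPM. Mir19b-2 had 0 reads in both libraries. Mir92-2 shares 22 bases with Mir92-1 and Mir19b-2 shares 25 with Mir19b-1, a mature arm among them in each case, so both can be undercounted and their levels were not compared with those of the members.

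The 2 libraries were compared over the whole table, and members were read from that fit. An exact binomial test with TMM scaling and Benjamini-Hochberg adjustment called 238 of 430 genes with at least 10 reads in sum (55.3%), 27.9% higher and 27.4% lower in replicate 1. All 5 members were called, 2 of them higher (Mir503 and Mir351) and 3 lower (Mir322, Mir542 and Mir450b) in replicate 1. The members' median log2 difference was -0.15, against -0.05 over all genes tested. This test compares 2 libraries of the same group on counting error alone, and the call of a member reads no differently from that of most other genes.

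Among the members Mir322 differed most, lower in replicate 1 by 1.61-fold (log2 difference -0.68, counting interval -0.71 to -0.66). Mir450b was lower too (log2 -0.58, -0.73 to -0.43; adjusted p = 5.4e-13, exact binomial test). Mir542 was lower by 1.11-fold (log2 -0.15, -0.22 to -0.09; adjusted p = 7.4e-06, exact binomial test), and this call was lost with total counts (log2 -0.02, adjusted p = 0.67, exact binomial test). Mir351 was higher by 1.19-fold (log2 0.26, 0.22 to 0.29; adjusted p = 8.9e-40, exact binomial test). Mir503 was higher by 1.18-fold (log2 0.24, 0.10 to 0.39; adjusted p = 0.0022, exact binomial test).

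Differences of this size were common between the 2 libraries. Among the 226 genes that averaged 100 reads or more, which include all 5 members, the median difference was 1.32-fold, and 25.7% differed by more than Mir322 did. TMM lowered every log2 difference by 0.13 relative to total counts. The directions of the 5 members were the same with both and with DESeq2 size factors.

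**Figure D3:**
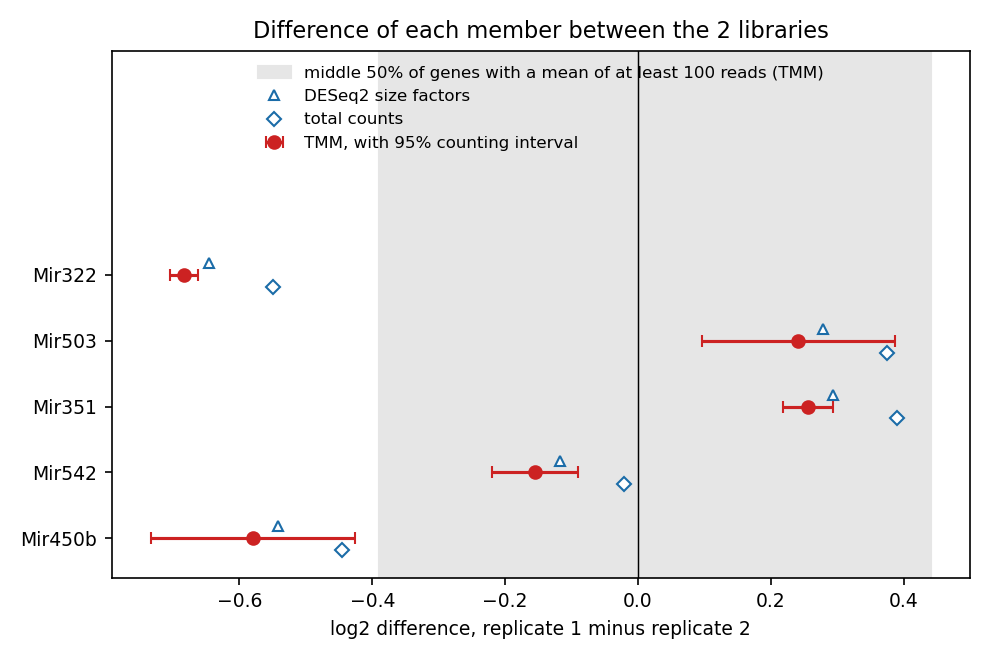
Log2 difference of each member, replicate 1 minus replicate 2, with TMM scaling and its 95% counting interval, and with DESeq2 size factors and total counts; the grey band holds the middle 50% of the genes that averaged 100 reads or more. Mir322 and Mir450b lay below the band and the other 3 members within it.

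When a spread between libraries was allowed for, fewer calls were left. With the biological coefficient of variation (BCV) set to 0.1, edgeR's exact test called 28.6% of the 430 genes and 2 of 5 members, Mir322 (adjusted p = 0.0059) and Mir450b (adjusted p = 0.034), both lower in replicate 1. The BCV estimated from these libraries was 0.424. That estimate comes from the same difference between the 2 libraries that is then tested, so the test at this value is shown as a setting and says nothing about variation between animals. At that value edgeR's exact test called 4 genes (0.93%), which were Mir185, Mir26a-2, Mir3074-1 and Mir451a, named here after their values were seen. It called 0 members, of which none had an unadjusted p under 0.05, against 24 of all genes. All 5 members had an adjusted p of 1 in that test.

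**Figure D4:**
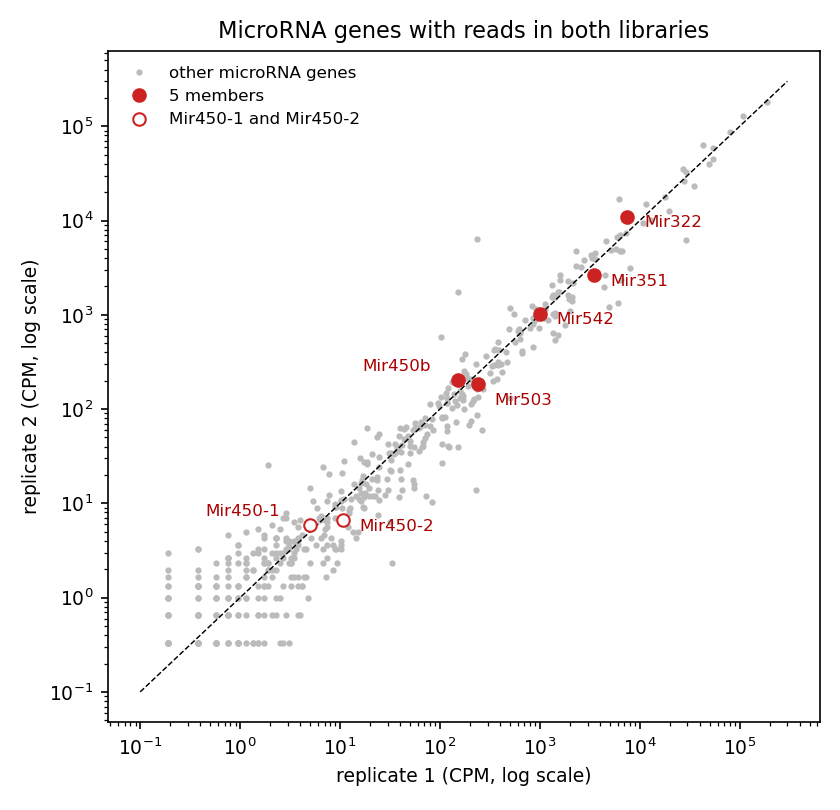
Level of each microRNA gene with reads in both libraries, replicate 1 against replicate 2 (CPM, log scales), with the 5 members as filled and Mir450-1 and Mir450-2 as open circles; the dashed line marks equality. The members lie within the cloud of other genes, from 178 CPM for Mir450b to 9264 CPM for Mir322 in the mean.

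Genes related by seed or by chromosome were read from the same fit. Over all genes tested, 27.9% were higher and 27.4% lower in replicate 1. Of the miR-15/16 list, 8 of 9 genes are in the tables and 6 could be tested. Of these, 2 were higher in replicate 1 (Mir15b by 1.54-fold and Mir195a by 2.27-fold) and 4 lower, with a median log2 difference of -0.17. The X-linked cluster had 1 of 4 tested genes higher, Mir92-2 (1.53-fold), and 3 not called. All 3 tested genes with the miR-351 seed outside the locus were higher in replicate 1, Mir125a by 2.30-fold, Mir125b-1 by 1.19-fold and Mir125b-2 by 1.58-fold. Mir125b-1 and Mir125b-2 carry that seed on an identical arm, so its reads would not be counted for either gene. Of the 40 X-linked genes tested, 12 were higher, 12 lower and 16 not called. The neighbours Mir450-1 (log2 difference -0.41, interval -1.32 to 0.56) and Mir450-2 (0.54, -0.20 to 1.38) were not called. The genes with the miR-351 seed were named after their values were seen.

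Markers of several cell types moved with the libraries. The 2 erythroid genes had a summed level of 337 CPM in replicate 1 but of 6972 CPM in replicate 2. The 5 fibroblast genes, with Mir199a-1 at 0, summed to 7989 and 3346 CPM. Of these, 3 were called higher in replicate 1 (Mir21a, Mir29a and Mir214). Mir199a-2 pointed the other way and was not called (log2 difference -0.86, interval -1.81 to 0.10). The 7 epithelial genes summed to 686 and 383 CPM, and the endothelial Mir126a stood at 42911 and 63991 CPM. The 3 pancreas genes, with Mir216a at 0, summed to 76.2 and 13.5 CPM, and the skeletal muscle gene Mir206 stood at 7.83 and 20.5 CPM. The 5 leukocyte genes summed to 3855 and 4154 CPM, although 4 of them were called higher in replicate 1 and only Mir155 lower. The 2 smooth muscle genes summed to 30333 and 33879 CPM, with Mir145a called higher in replicate 1 and Mir143 lower. The liver gene Mir122 stood at 55.9 and 70.4 CPM. The part of these cell types in the differences of the members was not tested.

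Ratios between members need no scaling of the libraries. Of the 10 pairs of members, 8 had a ratio that changed between libraries beyond counting error (95% interval of the log2 ratio in replicate 1 minus that in replicate 2). Each member enters several pairs, so these are not 10 separate results. The ratio of Mir503 to Mir351 was 0.0697 in replicate 1 and 0.0704 in replicate 2, as plain reads, a log2 change of -0.01 (-0.16 to 0.13). The ratio of Mir322 to Mir450b, the first and the last gene of the locus, was 49.9 and 53.7, a log2 change of -0.10 (-0.26 to 0.05). These were the 2 pairs whose interval held 0. Pairs of genes outside the locus were not examined in this way, so whether 8 of 10 is many cannot be told. The 55.3% of all genes tested that were called on counting error alone is no like measure. It counts single genes after scaling and adjustment, whereas the intervals of the pairs are unadjusted.

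The largest changes were between Mir322 and its nearest neighbours. The ratio of Mir322 to Mir351 rose from 2.18 in replicate 1 to 4.17 in replicate 2, a log2 change of -0.94 (-0.98 to -0.90). That of Mir322 to Mir503 was 31.2 in replicate 1 and 59.3 in replicate 2, a log2 change of -0.93 (-1.07 to -0.78). Mir542 lay between the 2 pairs, with a log2 change of 0.41 (0.34 to 0.49) for Mir351 to Mir542 and -0.53 (-0.60 to -0.46) for Mir322 to Mir542. Among the members that follow one another along the locus, only Mir503 and Mir351 kept a ratio whose interval held 0. With 2 libraries, each change rests on a single difference between them.

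**Figure D5:**
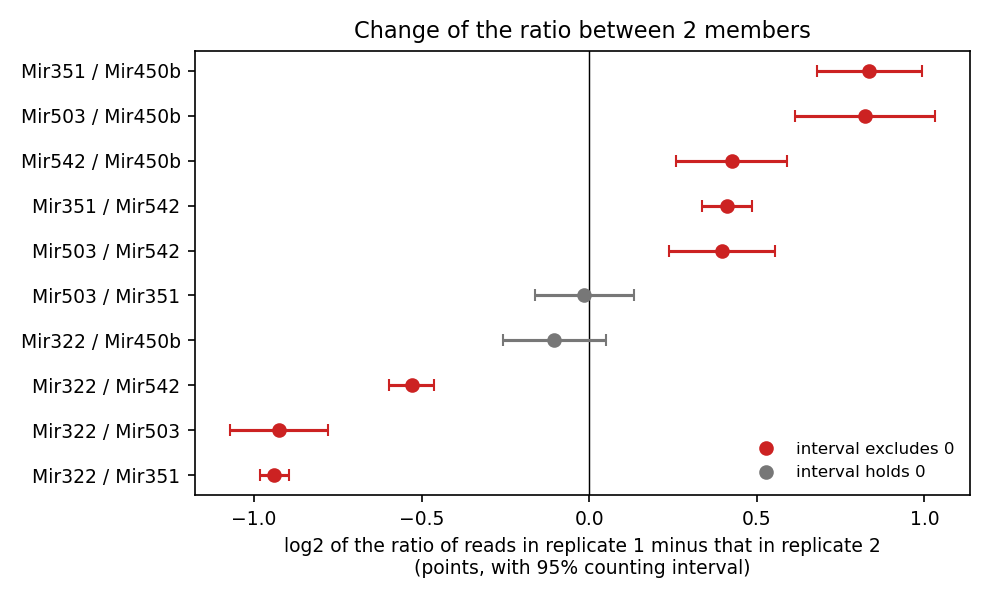
Change of the log2 ratio of reads between 2 members, replicate 1 minus replicate 2, for the 10 pairs, with 95% counting intervals. The intervals of Mir503 to Mir351 and Mir322 to Mir450b hold 0, and those of the other 8 pairs do not.

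Genes with the likest levels were named by their Euclidean distance in log2(CPM + 1) over the 2 libraries, members left out. Nearest to Mir322 were Mir191 (distance 0.559, at 10743 and 9459 CPM), Mir30a (0.584) and Mir99b (0.686), none of them on the X chromosome. Nearest to Mir351 was Mir499, the heart muscle microRNA of Myh7b (0.0862, at 3482 and 2486 CPM). Mir484 was nearest to Mir542 (0.0817), Mir434 to Mir503 (0.139) and Mir130b to Mir450b (0.0529, at 154 and 212 CPM). Over 2 libraries this likeness describes level and one difference only.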

How the data were processed

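MicroRNA-seq of mouse heart was analysed in 1 group of 2 libraries, taken as replicates 1 and 2 from the labels. The deposited tables hold raw counts of reads per gene, not normalized by the authors, made on mm10 with GENCODE M21 per the readme deposited with them (tools and settings for trimming, alignment and counting: not given in the sources used here). Of 3 count columns, the second (own strand) was used, without the 4 summary lines, which left 41.2% and 42.5% of all reads. Members were matched by GENCODE gene name. Printed sequences are from RefSeq (GRCm38.p6), and shared bases and folding were computed on GENCODE M21 transcripts. Members, lists and tests were chosen with earlier results of these data known.

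Libraries were compared gene by gene by an exact binomial test (smaller tail doubled) on TMM sizes from edgeR 4.0.16 (R 4.3.3), with at least 10 reads in sum, 0.5 reads added for log2 differences and Benjamini-Hochberg adjustment over all genes (threshold 0.05). With 10 to 100 reads, counting error is wide; intervals per gene are in the report. The p-values of this test measure counting error between these 2 libraries, which may differ for technical reasons, and do not stand for conditions. edgeR's exact test and DESeq2 1.42.0 size factors were alternatives. Ratios of 2 members have Wald intervals of the log odds ratio; Fisher's exact tests of the pairs were computed but are not printed, as they would be adjusted over the members alone. A neighbour in the order of levels was described as different where the mean log2 ratio passed 2 SD with the same sign in both libraries. No test was made of this order. Named were the members, microRNA genes within 20 kb, the miR-15/16 list, the X-linked Mir106a cluster and the likest genes; genes sharing the seed of miR-351-5p were added after the data were seen, as were the X chromosome totals. Other work used Python 3.11.15, scipy 1.17.1, pandas 2.3.3 and RNAfold 2.7.2.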

Additional observations from a re-analysis of the deposited data

How the results depend on the processing

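The members' share of counted reads (1.37% on average) was 1.88% with unstranded reads, which leave fewer counted reads in all while the members' own reads stay the same, and 0.575% of all reads sequenced. The 238 genes called between libraries became 123 at a BCV of 0.1 and 4 at the estimated BCV, and the 5 members called became 2 and 0. Other scalings, read minimums and unstranded reads left between 202 and 240 genes and 4 or 5 members called. The number of genes tested changed as well, so the share called was not stable. The main setting called 238 of 430 genes. A minimum of 100 reads left 202 of 263 genes and 5 members called. A minimum of 1 read left 234 of 723 genes and 4 members. Unstranded reads left 216 of 403 genes and 5 members. Mir542 was lost under total counts and with a minimum of 1 read (adjusted p = 0.76, exact binomial test). No direction of a member turned under any setting run. The order of levels and the 8 changed pairs were the same with unstranded reads, and adding Mir450-1 and Mir450-2 gave 10 changed of 21 pairs. Leaving out either library left no comparison between libraries, and levels from 1 library are those given per replicate. Depth limits Mir450-1 and Mir450-2, whose intervals span over 2-fold in each library, apart from Mir450-2 in replicate 1. No paired analysis was possible because there is 1 group.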

Other observations

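The hairpins of the locus differed in base composition and predicted folding. G and C made up 30.5% of Mir450b, 33.0% of Mir450-1 and 36.2% of Mir450-2, against 50.5% to 54.9% of Mir322, Mir503, Mir351 and Mir542. By RNAfold, Mir503 had the lowest predicted energy per base of the members (-0.53 kcal/mol per base, with 8.81% of 2202 hairpins lower), followed by Mir322 (-0.45, 22.1%) and Mir542 (-0.45, 23.3%). Mir450b (-0.39) and Mir351 (-0.38) lay near the middle, with 42.5% and 47.5% of hairpins lower. The neighbours had -0.45 (Mir450-1, 22.5% of hairpins lower) and -0.38 (Mir450-2, 44.6%). Whether predicted folding goes with level was not tested.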
